A study of Mus musculus with 8 samples.

Results

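The helix-loop-helix genes described here are the 3 Id genes Id1, Id2 and Id3 and the 3 E protein genes Tcf3, Tcf4 and Tcf12. The members were all probe sets annotated to one of these 6 symbols alone, which gave 13 of the 45141 probe sets on the array. Id1 and Id3 had 1 probe set each, Id2, Tcf3 and Tcf4 had 3 each, and Tcf12 had 2. A probe set is a group of short probes that together give 1 value for a transcript. No probe set joined a member with another gene (0 probe sets).

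RNA was measured on 8 one-colour Affymetrix arrays in 4 groups of 2. Cells were of wild type (WT) or Nfil3 knockout (KO, labelled -/-) genotype, and were sorted as ALP, which the labels spell out as all lymphoid progenitors, or as prepro NK cells (preproNK). All 8 samples came from bone marrow depleted of lineage-positive cells, from mice that carry the ID2-GFP reporter, and were lysed directly after sorting. The reporter is shared by both genotypes and both populations. The labels name neither the sort gates, the age or number of mice, nor the kind of Nfil3 allele. Replicates 1 and 2 were processed on different dates. Nothing states that the 2 arrays of a group came from separate mice, so a p-value here reflects the variation among arrays, which may be technical.

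E proteins are transcription factors of the basic helix-loop-helix family that bind E-boxes as dimers and drive the early genes of the B and T lineages. Tcf3 encodes E12 and E47, Tcf4 encodes E2-2, and Tcf12 encodes HEB. Id proteins have the dimerisation helices but lack the basic region, so a dimer of an Id and an E protein does not bind DNA. Id2 is needed for NK cells and other innate lymphoid cells, and E2-2 for plasmacytoid dendritic cells. Nfil3 is a leucine zipper transcription factor required for the NK lineage.

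The sequence just upstream of the start site is printed for 2 Id genes. It was searched for the E-box, which E proteins bind, and for 2 other motifs. The 250 bases are from RefSeq (GRCm38.p6), written 5′ to 3′ on the strand of the gene. The Id2 window lies on the minus strand at chr12:25096093-25096342 and the Id3 window on the plus strand at chr4:136143572-136143821. Capitals mark matches to the E-box CANNTG and to GGCGCC, 2 palindromes searched on both strands, and TTANNTAA was searched in the same way.
Id2: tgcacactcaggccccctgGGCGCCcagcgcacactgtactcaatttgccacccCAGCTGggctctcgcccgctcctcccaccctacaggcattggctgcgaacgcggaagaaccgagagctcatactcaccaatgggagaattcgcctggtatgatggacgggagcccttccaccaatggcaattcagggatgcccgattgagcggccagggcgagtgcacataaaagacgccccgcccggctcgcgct
Id3: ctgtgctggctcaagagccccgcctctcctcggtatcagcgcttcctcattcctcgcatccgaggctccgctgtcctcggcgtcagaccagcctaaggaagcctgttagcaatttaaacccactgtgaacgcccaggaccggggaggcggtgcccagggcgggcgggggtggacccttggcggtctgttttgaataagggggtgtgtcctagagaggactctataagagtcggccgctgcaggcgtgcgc

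The Id2 window held 1 E-box, CAGCTG, 196 bases before the start, and 1 GGCGCC. The Id3 window held 0 matches to any of the 3 motifs. Among 32851 mouse windows of the same length, 66.2% held CANNTG, 13% held CAGCTG, 9.59% held GGCGCC and 5.43% held TTANNTAA. Both windows had a GC content of 62.8%. The Tcf3 window, on the minus strand at chr10:80433636-80433885, held 1 E-box 54 bases before the start. It is printed beside them as the window of an E protein gene.
Tcf3: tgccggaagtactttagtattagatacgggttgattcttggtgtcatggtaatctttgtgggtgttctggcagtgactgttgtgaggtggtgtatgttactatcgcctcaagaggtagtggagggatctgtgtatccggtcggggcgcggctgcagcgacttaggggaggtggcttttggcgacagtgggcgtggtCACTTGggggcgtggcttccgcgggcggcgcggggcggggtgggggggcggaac

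A match describes letters only and shows no binding.

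The arrays were not alike in range. Array medians over all probe sets lay between 3.93 and 4.27 on the log2 scale. WT preproNK replicate 2 stood apart: its values had an SD of 1.39 against 1.55 to 1.88 on the other 7 arrays, and 674 tested probe sets exceeded log2 8 there against 1271 to 2624. Its correlations with the other arrays were 0.487 to 0.762, against 0.742 to 0.984 among the other 21 pairs. Results that rest on this array are therefore also given without it. Nfil3 itself was lower in the KO on every array, at 3.41 to 4.15 against 4.74 to 6.89 in WT. The probe set's position relative to the deleted part was not given, and neither fitted difference was called (adjusted p = 1.00 in ALP and 0.628 in preproNK by limma).

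Members were tested with limma, with Benjamini-Hochberg adjustment over the 26192 probe sets above the array median on at least 2 of the 8 arrays, and a probe set was called at an adjusted p under 0.05. The test took in 12 of the 13 member probe sets, all but that of Id1. Differences are on the log2 scale, preproNK minus ALP or KO minus WT. In these bulk samples, fewer cells of a type and less RNA per cell cannot be told apart.

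Id2 was the Id gene that differed between the populations, with higher values in preproNK. Its probe set with the highest mean (1422537_PM_a_at, Entrez gene 15902) read 6.83 and 6.94 in WT ALP, 6.16 and 5.94 in KO ALP, 10.68 and 8.37 in WT preproNK, and 10.48 and 9.86 in KO preproNK. All 4 preproNK arrays were above all 4 ALP arrays, with the WT preproNK replicate 2 array the lowest of them. WT ALP averaged 6.88 ± 0.08, KO ALP 6.05 ± 0.15, WT preproNK 9.53 ± 1.64 and KO preproNK 10.17 ± 0.44 (SD, n = 2). From low to high the order was KO ALP, WT ALP, WT preproNK and KO preproNK. The 2 preproNK groups overlapped.

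Because the reporter marks Id2 and may have been used to sort the cells, the population difference of Id2 can be partly set by the sort. It is described here and supports no further statement. Over both genotypes it was 3.38 (SE 0.49, 95% interval 2.23 to 4.53), or 10.4-fold, adjusted p = 0.0177 by limma. In KO it was 4.12 (SE 0.70), or 17.4-fold, with the replicate pairs at 4.32 and 3.92 (adjusted p = 0.0419 by limma). That call was lost without the filter on dim probe sets (adjusted p = 0.0879) and with a floor at the array median (0.0514). The call was also lost without any one ALP or KO preproNK array, fits in which fewer of all tested probe sets were called in KO. In WT it was 2.64 (SE 0.70), with pairs at 3.86 and 1.43, and it was not called (adjusted p = 0.358 by limma). Without WT preproNK replicate 2 the WT difference was 3.80 and was called (adjusted p = 0.00964 by limma).

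The call over both genotypes did not withstand the loss of every array. Its difference ranged from 2.80 to 3.96 when each array was left out in turn. The ends of that range came from the fits without a WT preproNK array, where the call stayed. The call was lost without any one of the 6 ALP or KO preproNK arrays, where the difference was 3.23 to 3.54. Fewer of all tested probe sets were called in each of those 6 fits than with every array. More were called in each fit without a WT preproNK array, the group with the largest SD for this Id2 probe set (1.64). How far this accounts for the calls of Id2 that were lost or stayed was not tested.

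The other 2 Id2 probe sets were near background in ALP and gave the same order of populations on 3 of the 4 preproNK arrays. For 1453596_PM_at the values were 3.46 and 3.60 in WT ALP, 3.35 and 3.47 in KO ALP, 6.40 and 3.46 in WT preproNK, and 6.49 and 5.03 in KO preproNK. For 1435176_PM_a_at they were 2.93 and 2.97, 3.01 and 2.63, 5.92 and 2.89, and 6.09 and 4.73 in the same order. All 4 ALP arrays and WT preproNK replicate 2 were below the array median for both, where a value is near background. Their differences over both genotypes, 1.87 (SE 0.64) and 2.02 (SE 0.65), were not called, with adjusted p = 0.217 and 0.188 by limma. Without WT preproNK replicate 2 both were called, with differences of 2.61 and 2.78 and adjusted p = 0.00840 and 0.00589 by limma.

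**Figure D1:**
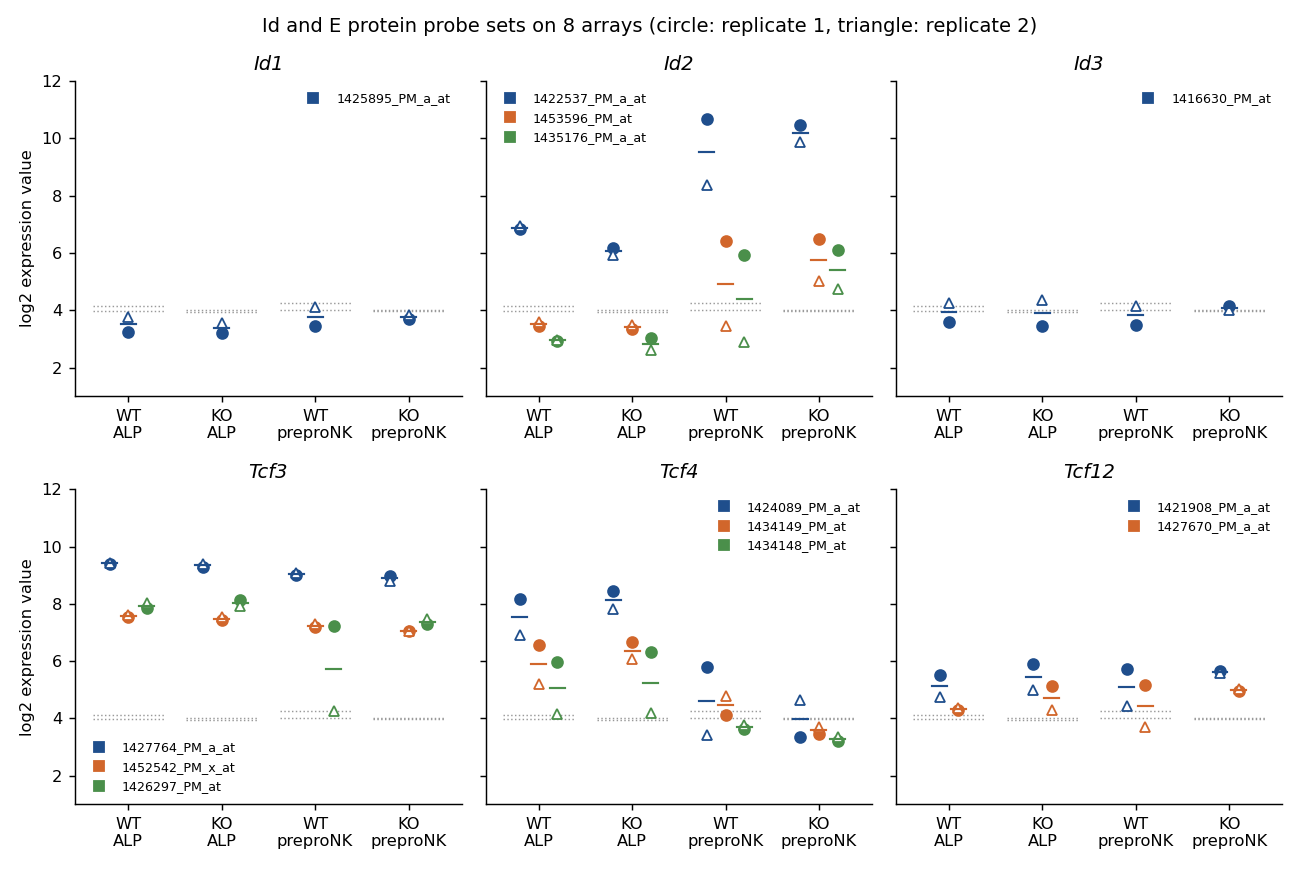
Log2 value of each member probe set on each of the 8 arrays, by group. Circles are replicate 1, open triangles replicate 2, short lines group means, and dotted grey lines each array's median. Id2 1422537_PM_a_at lies between 5.94 and 6.94 in ALP and between 8.37 and 10.68 in preproNK, while Tcf4 1424089_PM_a_at lies between 6.91 and 8.44 in ALP and between 3.36 and 5.78 in preproNK.

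Id1 and Id3 were near background. The Id1 probe set (1425895_PM_a_at, Entrez gene 15901) read 3.24 and 3.78 in WT ALP, 3.21 and 3.56 in KO ALP, 3.45 and 4.10 in WT preproNK, and 3.68 and 3.83 in KO preproNK. It was below the array median on all 8 arrays, so it was not tested. Id3 (1416630_PM_at, Entrez gene 15903), the Id protein that rises after antigen receptor signalling, read 3.59 and 4.27 in WT ALP, 3.46 and 4.36 in KO ALP, 3.48 and 4.16 in WT preproNK, and 4.14 and 4.03 in KO preproNK. It was above the array median on 4 of 8 arrays, and the groups overlapped throughout. Its population difference over both genotypes was 0.03 (SE 0.32, interval -0.72 to 0.79, adjusted p = 0.987 by limma), and these bounds are what 8 arrays allow.

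Tcf4, the gene of E2-2, was lower in preproNK on all 3 of its probe sets. For 1424089_PM_a_at (Entrez gene 21413) WT ALP read 8.18 and 6.91, KO ALP 8.44 and 7.81, WT preproNK 5.78 and 3.44, and KO preproNK 3.36 and 4.63. No preproNK array reached the lowest ALP array, and the spread within preproNK was 1.66 and 0.90 (SD, n = 2) in WT and KO. Its difference over both genotypes was -3.53 (SE 0.60, interval -4.93 to -2.14), an 11.6-fold fall, adjusted p = 0.0285 by limma. Of the 4 preproNK arrays, 2 were below the array median, and with values there set to the median preproNK was at least 8.99-fold lower.

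The probe sets 1434149_PM_at and 1434148_PM_at gave smaller differences. Their arrays read 6.57 and 5.20 in WT ALP, 6.68 and 6.06 in KO ALP, 4.14 and 4.78 in WT preproNK, and 3.47 and 3.69 in KO preproNK for the first. For the second they read 5.96 and 4.16, 6.31 and 4.20, 3.64 and 3.77, and 3.21 and 3.35. The first was called over both genotypes at -2.11 (SE 0.37, adjusted p = 0.0326 by limma), at least 3.74-fold lower with the floor. The second was -1.66 (SE 0.55) and missed the threshold (adjusted p = 0.203 by limma). All 4 of its preproNK arrays were below the array median, so its level there is only bounded, at least 2.13-fold lower with the floor.

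Within a genotype, neither of the called Tcf4 probe sets passed the test. In KO the differences were -4.13 (SE 0.84, pairs -5.08 and -3.18, adjusted p = 0.0764) and -2.79 (SE 0.53, adjusted p = 0.0579) by limma. With the replicate number as a block both passed in KO (adjusted p = 0.0358 and 0.0334). In WT they were -2.93 (SE 0.84, pairs -2.39 and -3.47) and -1.43 (SE 0.53), with adjusted p = 0.413 and 0.584 by limma. For 1424089_PM_a_at the call over both genotypes was lost when any one of the 6 ALP or KO preproNK arrays was left out. The differences in those fits were from -3.85 to -3.21, and fewer of all tested probe sets were called there than with every array. The call stayed without WT preproNK replicate 1, at -4.12, and without WT preproNK replicate 2, at -2.94. In those fits more of all tested probe sets were called than with every array. For 1434149_PM_at it was lost without WT ALP replicate 1 or without any one of the 4 KO arrays (adjusted p from 0.101 to 0.194 by limma). Without the filter on dim probe sets both calls were lost (adjusted p = 0.0650 and 0.0595 by limma).

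Tcf3, the gene of E12 and E47, had lower deposited values on every preproNK array than on any ALP array for all 3 of its probe sets, by differences that were not called. For 1427764_PM_a_at (Entrez gene 21423) it read 9.38 and 9.44 in WT ALP, 9.29 and 9.39 in KO ALP, 9.0 and 9.06 in WT preproNK, and 8.97 and 8.81 in KO preproNK. The 4 preproNK arrays lay below the 4 ALP arrays, with a gap of 0.23. The fitted difference was -0.42 (SE 0.22, interval -0.93 to 0.09) and was not called (adjusted p = 0.463 by limma). The probe set 1452542_PM_x_at, made from the same source sequence, read 7.52 and 7.62 in WT ALP, 7.43 and 7.53 in KO ALP, 7.20 and 7.29 in WT preproNK, and 7.06 and 7.05 in KO preproNK. It gave -0.38 (SE 0.22, adjusted p = 0.527 by limma), so these are not independent readings of Tcf3. After quantile normalization was repeated, the populations overlapped for both of these probe sets, with 1427764_PM_a_at at 8.95 to 9.66 in ALP and 8.48 to 9.84 in preproNK.

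The third Tcf3 probe set, 1426297_PM_at, turned on 1 array. It read 7.87 and 8.02 in WT ALP, 8.12 and 7.94 in KO ALP, 7.21 and 4.25 in WT preproNK, and 7.29 and 7.46 in KO preproNK. The value of 4.25 was that of WT preproNK replicate 2. The difference over both genotypes was -1.43 (SE 0.59, adjusted p = 0.316 by limma), and without that array it was -0.69 (adjusted p = 0.138 by limma).

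Tcf12, the gene of HEB, did not separate the populations. Its probe set 1421908_PM_a_at (Entrez gene 21406) read 5.51 and 4.76 in WT ALP, 5.91 and 5.01 in KO ALP, 5.73 and 4.45 in WT preproNK, and 5.67 and 5.60 in KO preproNK. The difference over both genotypes was 0.06 (SE 0.38, interval -0.84 to 0.97, adjusted p = 0.981 by limma). For 1427670_PM_a_at, which read 4.30 and 4.35, 5.14 and 4.29, 5.18 and 3.70, and 4.96 and 5.02 in the same order, it was 0.19 (SE 0.38, adjusted p = 0.922 by limma). Both probe sets overlapped between populations.

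Over both genotypes 3 of the 12 tested member probe sets were called, against 2.81% of all tested probe sets. Without Id2, whose difference the sort can set, 2 of 9 were called, and 2 of 9 also without WT preproNK replicate 2. Of the 3, 1 was higher in preproNK, that of Id2, where 1.48% of all were, and 2 were lower, both of Tcf4, where 1.34% were. In KO alone 1 was called, higher, against 1.44% called and 1.00% called higher. It was Id2 1422537_PM_a_at, whose difference the sort can set, and no member of another gene was called there. In WT alone 0 of 12 were called, against 0.0611% (0.0115% higher and 0.0496% lower), although 4 of 12 had an unadjusted p under 0.05 against 7.15%. Without WT preproNK replicate 2 the counts were 5 of 12 over both genotypes, 5 in KO and 1 in WT, the 5 being the 3 Id2 probe sets and the 2 called Tcf4 probe sets. Of all tested probe sets, 7.01%, 4.15% and 1.24% were called in those 3 comparisons without that array. The probe set called in WT without that array was Id2 1422537_PM_a_at. With the replicate block 3 members were called in KO, Id2 1422537_PM_a_at and Tcf4 1424089_PM_a_at and 1434149_PM_at. In that block fit 523 of the 26192 tested probe sets were called higher and 266 lower in KO. The 4 preproNK and 4 ALP arrays did not overlap for 7 of 12 probe sets, 1 higher and 6 lower, against 11.8% of all tested (5.22% higher and 6.54% lower). The 6 were the 3 of Tcf3 and the 3 of Tcf4. Members of 1 gene share their transcript, so they are not independent, and the median member difference of -0.17 against 0.02 over all tested is a description.

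**Figure D2:**
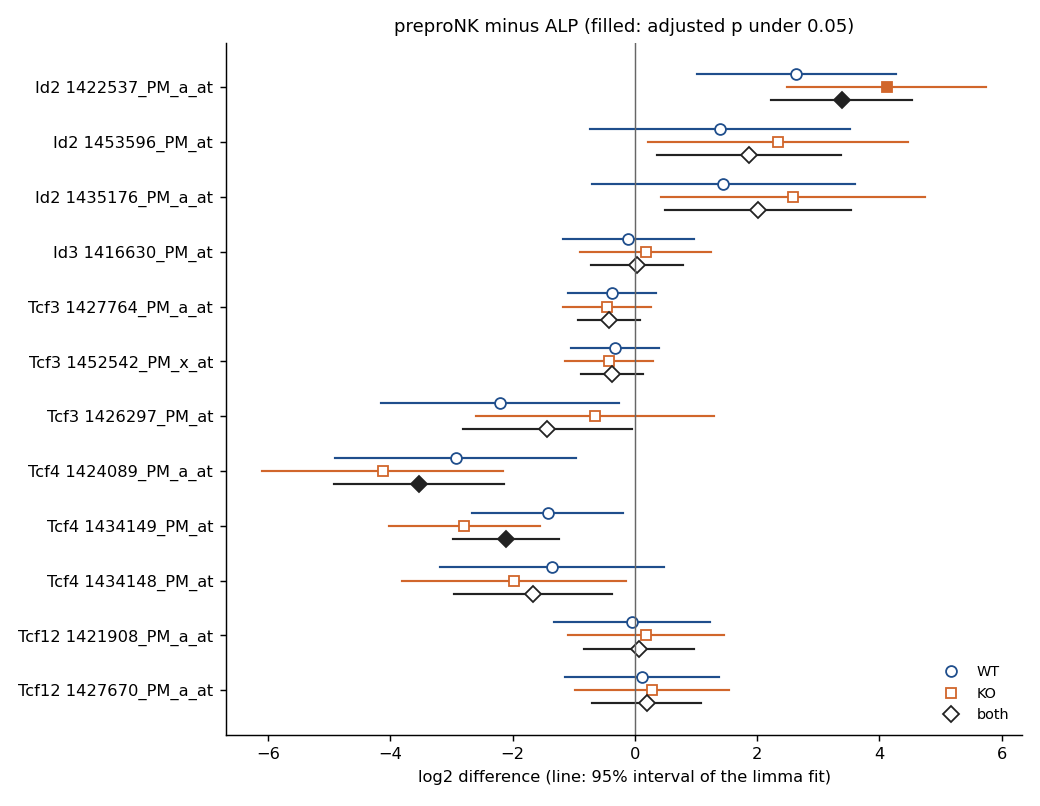
Log2 difference preproNK minus ALP for each tested member probe set in WT, in KO and over both genotypes, with the 95% interval of the limma fit as lines. Id2 lies to the right of 0, at 3.38 over both genotypes for 1422537_PM_a_at, Tcf4 and Tcf3 lie to the left, and Id3 and Tcf12 lie close to 0.

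**Figure D3:**
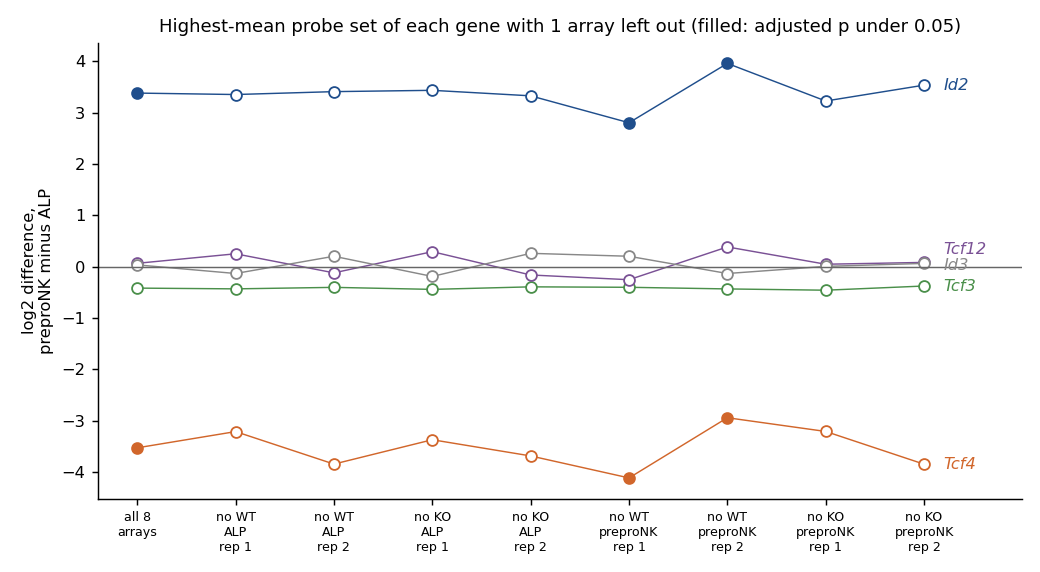
Log2 difference preproNK minus ALP over both genotypes of the highest-mean probe set of each gene with all 8 arrays and with each array left out in turn. Filled points have an adjusted p under 0.05. Id2 runs from 2.80 to 3.96 and Tcf4 from -4.12 to -2.94. Both lose the call without any one ALP or KO preproNK array, fits in which fewer of all tested probe sets were called. More were called in the fits without a WT preproNK array.

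The genotype comparison asked whether loss of Nfil3 moved these genes. No member was called: 0 of 12 in ALP and 0 of 12 in preproNK, and 0 of 26192 probe sets in either comparison (0%). At an unadjusted p under 0.05, 0 of 12 members passed in ALP, against 19 of all probe sets (0.0725%), and 0 of 12 in preproNK, against 1381 (5.27%). The median of all tested probe sets was 0.08 in ALP and 0.14 in preproNK, and after repeating quantile normalization the latter was 0.03, so single values are to be read against that shift.

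In ALP the Id2 probe set with the highest mean was lower in KO, by a difference of -0.83 (SE 0.70, interval -2.46 to 0.80, pairs -0.67 and -1.0, adjusted p = 1.00 by limma). It was the 1 member of 12 whose WT and KO arrays did not overlap in ALP, against 16.9% of all tested (9.25% with KO higher and 7.67% with KO lower). The 3 Tcf4 probe sets had KO minus WT differences of 0.58, 0.48 and 0.20 in ALP, all of which had overlapping arrays. Those of Tcf3 lay between -0.09 and 0.09.

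In preproNK the KO and WT arrays did not overlap for 5 of 12 members, against 39.0% of all tested. Of these, 4 had KO lower (2 Tcf3 probe sets and the Tcf4 probe sets 1434149_PM_at and 1434148_PM_at), against 16.3%, and 1 had KO higher (Tcf3 1426297_PM_at), against 22.7%. All 4 preproNK arrays of Tcf4 1434148_PM_at and both KO preproNK arrays of 1434149_PM_at were below the array median, where a value is near background. The Tcf3 1426297_PM_at difference of 1.64 (SE 0.83, pairs 0.07 and 3.21, adjusted p = 0.628 by limma) was 0.16 without WT preproNK replicate 2, and 3.13 and called without WT preproNK replicate 1 (adjusted p = 0.0119 by limma). Tcf4 1434149_PM_at was at -0.88 (SE 0.53, pairs -0.66 and -1.10, adjusted p = 0.628 by limma). For Id2 1422537_PM_a_at the difference was 0.65 (SE 0.70, pairs -0.20 and 1.49, adjusted p = 0.676 by limma), and -0.51 without WT preproNK replicate 2. Without WT preproNK replicate 1 it was 1.80, with an adjusted p of 0.0282 by limma. In that fit, which leaves WT preproNK replicate 2 as the 1 WT preproNK array, 19.4% of all tested probe sets were called.

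The difference between the populations in the response to the knockout was tested directly as the interaction. None of 12 members was called, nor any of the 26192 probe sets (0%). For Id2 1422537_PM_a_at it was 1.48 (SE 0.98, interval -0.82 to 3.78), and for Tcf4 1424089_PM_a_at -1.20 (SE 1.19, interval -3.99 to 1.59), both with an adjusted p of 1.00 by limma. At an unadjusted p under 0.05 it was 0 of 12 members, against 393 of all (1.50%).

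**Figure D4:**
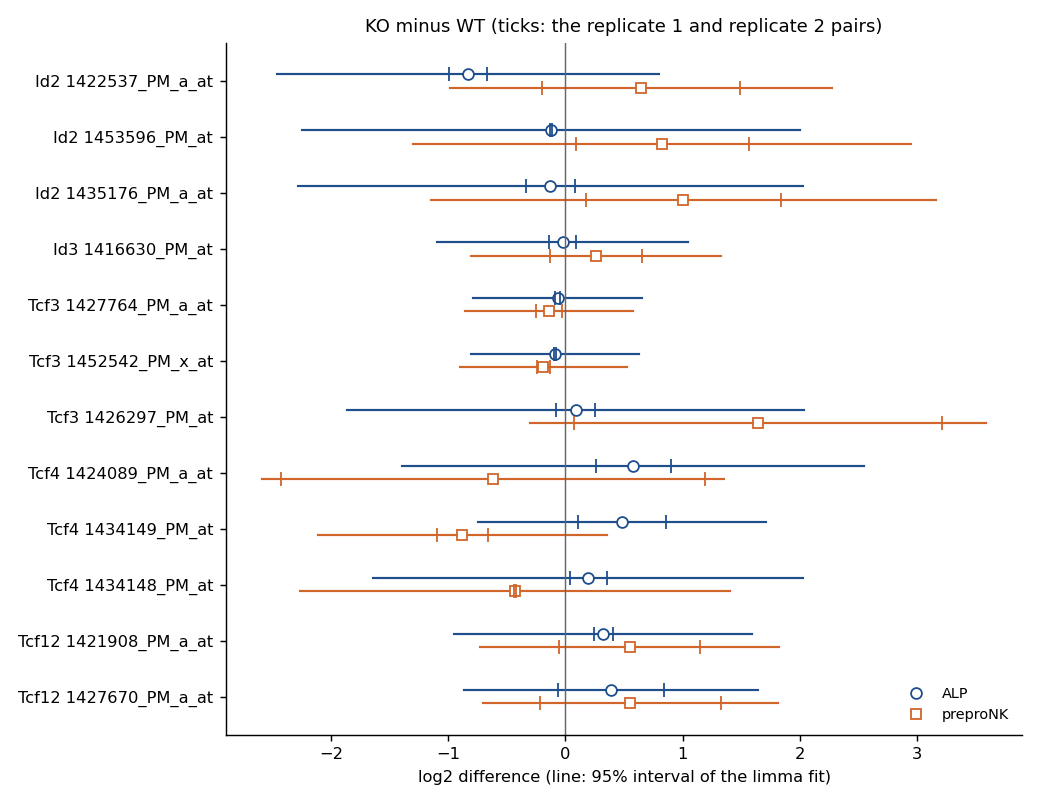
Log2 difference KO minus WT for each tested member probe set in ALP (circles) and preproNK (squares), with the 95% interval as lines and the replicate 1 and replicate 2 pairs as ticks. Every interval crosses 0, and the pairs of Tcf3 1426297_PM_at in preproNK differ between 0.07 and 3.21.

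The lists of E protein partners, cofactors and targets were read in the same fit, by the probe set of each gene with the highest mean. Of 25 genes that E proteins activate in lymphoid progenitors, 20 had a probe set of 1 symbol and 16 were tested, and 4 were called lower in preproNK over both genotypes and 0 higher, against 1.34% lower and 1.48% higher of all tested probe sets. The median of the 16 was -0.21 against 0.02 over all probe sets. Of the 25 genes, 12 are also in a cell type marker list, 9 of them B cell markers. Dntt, the terminal transferase of antigen receptor joining, read 10.87, 10.17, 10.86 and 10.48 in the WT and KO ALP arrays and 4.76, 4.65, 4.47 and 4.48 in the preproNK arrays. It fell by 6.0 (SE 0.26, adjusted p = 0.000488 by limma). Blnk, the B cell linker protein, and Rag2, a recombinase subunit, were below the array median on all 4 preproNK arrays, so their folds are bounds against that floor. Blnk was at least 5.66-fold lower (adjusted p = 0.00303 by limma), and Rag2 at least 1.72-fold lower (adjusted p = 0.0358 by limma). Cdkn1a, the cell cycle inhibitor p21, fell by 2.60 (SE 0.36, adjusted p = 0.0152 by limma), with 3 of its 4 preproNK arrays below the array median. Another tested probe set of Cdkn1a gave -1.07. Without WT preproNK replicate 2, 6 were called, 5 lower and 1 higher, against 2.28% lower and 4.72% higher of all tested probe sets. The 2 added calls, named after their values were seen, were Notch1, lower, and Ccr9, higher.

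Of 19 other helix-loop-helix genes, 11 were tested and 1 was called, lower, against 1.34% of all tested probe sets: Lyl1, a class II helix-loop-helix factor that pairs with E proteins, fell by 3.14 (SE 0.37, adjusted p = 0.00957 by limma). Of 14 cofactors of E protein complexes, 11 were tested and 2 were called, both lower, against the same 1.34%. Lmo2, the LIM-only bridging protein, fell by 3.65 (SE 0.42, adjusted p = 0.00814 by limma), with 2 of its 4 preproNK arrays below the array median, and Cbfa2t3, a corepressor, fell by 1.44 (SE 0.27, adjusted p = 0.0398 by limma). Other tested probe sets of Cbfa2t3 gave -2.42 and -0.81. The list medians were -0.01 for the helix-loop-helix genes and -0.24 for the cofactors.

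Of 22 genes of BMP and TGF-beta signalling, which lies upstream of Id genes, 15 were tested and 0 were called, with a median of 0.07. Of the 15, 1 had an unadjusted p under 0.05, against 14.8% of all tested probe sets. Ski, a corepressor of the Smad proteins, was at 1.79 (SE 0.72, adjusted p = 0.298 by limma) and Tgfbr2, a TGF-beta receptor, at 1.18 (SE 0.65, adjusted p = 0.499 by limma). Without WT preproNK replicate 2 these 2 were called higher, in a fit that leaves a lone WT preproNK array. That fit called more of all tested probe sets higher than the fit with every array. With all 8 arrays, the other tested probe set gave 1.11 for Ski and 2.86 for Tgfbr2. Of 5 Egr factors and corepressors upstream of Id3, 4 were tested and 0 were called, with 0 at an unadjusted p under 0.05, against the same 14.8%. Nab1 was at 0.59 (SE 0.26, adjusted p = 0.354) and Egr1 at 0.50 (SE 0.22, adjusted p = 0.364) by limma. Egr1 was below the array median on all 4 ALP arrays and both WT preproNK arrays, where a value is near background. Another tested probe set of Nab1 gave 0.03. None of the 5 lists had a gene called for the genotype in either population or for the interaction.

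**Figure D5:**
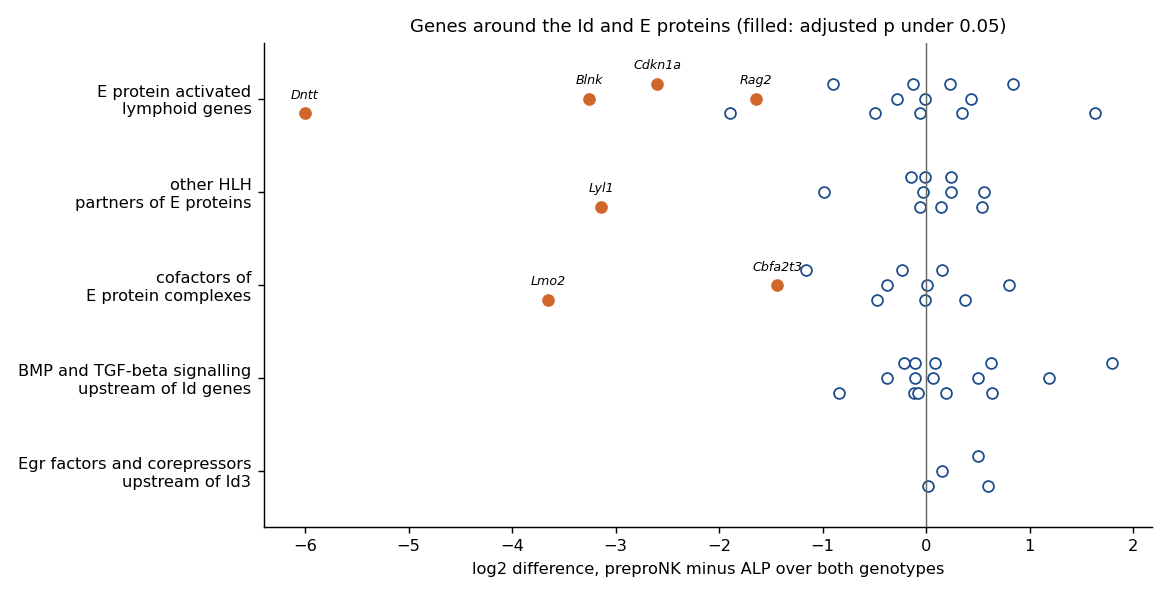
Log2 difference preproNK minus ALP over both genotypes of the tested genes of 5 lists around the Id and E proteins. Filled points have an adjusted p under 0.05 and are named; all 7 lie to the left of 0, from -6.0 for Dntt to -1.44 for Cbfa2t3.

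Markers of cell types that a sorted progenitor fraction could hold moved with these genes, and their part in the differences was not tested. The early lymphoid progenitor markers had 5 of 9 tested genes called lower in preproNK over both genotypes. Of all tested probe sets, 1.34% were called lower and 1.48% higher in that comparison. The summed level of the progenitor markers on the linear scale was 2768 to 4609 in ALP against 221 to 769 in preproNK. Flt3, a cytokine receptor of lymphoid progenitors, fell by 4.64 (SE 0.34, adjusted p = 0.00258 by limma). T cell markers had 11 of 11 called higher, with sums of 268 to 356 in ALP and 904 to 7193 in preproNK. Within preproNK these were 904 and 2479 in WT and 6295 and 7193 in KO. NK and innate lymphoid precursor markers had 6 of 11 called higher and 1, Cd244a, lower, with sums of 330 to 595 and 535 to 2715, and the NK receptor gene Ncr1 was below the array median on all 8 arrays. Plasmacytoid dendritic cell markers, of interest beside Tcf4, had 3 of 9 called lower (Irf8, Tlr7 and Cox6a2) and 0 higher, with sums of 1074 to 1763 and 439 to 943. Ccr9, a chemokine receptor on this list and on that of E protein targets, went the other way at 1.63 (SE 0.74, adjusted p = 0.380 by limma), and was called higher without WT preproNK replicate 2 (adjusted p = 0.0151 by limma). Its highest value, 9.23, was on WT preproNK replicate 1, the array with the sum of 943.

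The probe sets of other genes most like each member were found by the root-mean-square difference of log2 values centred on their own mean over the 8 arrays, among 17952 probe sets. Points share their 8 arrays, and the measure carries no test. For Id2 they were Bcl11b (0.284), Adam8 (0.323) and Gm20559 (0.326). For Tcf4 they were Nme4 (0.498), Repin1 (0.519) and Syk (0.537). For Tcf3 they were Tmem38a (0.0653), Oip5 (0.0918) and Pgap3 (0.0920), for Tcf12 Ciao2b (0.0853), Nfx1 (0.0940) and Rbm43 (0.0963), and for Id3 Rassf3 (0.121), Runx1 (0.149) and Znrf4 (0.163).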

How the data were processed

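The deposited table holds 1 log2 value per probe set and array. Per the submitters' processing notes the authors used RMA and Partek, with settings not given in the sources used here. As generally run, RMA corrects background, equalizes distributions between arrays and combines probes. The deposited values of these 8 arrays were not equal in distribution, with SDs of 1.39 to 1.88 and medians of 3.93 to 4.27. The reason was not tested. What is called repeated quantile normalization here makes the 8 distributions equal. Per the labels' protocols RNA was amplified over 23 cycles, which can widen the spread of arrays. No detection calls came with the values, so a probe set under an array's median was taken as near background, and a fold written as at least N-fold takes the median in place of any lower value. Array values carry no read depth, and the number of arrays limits the precision.

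Gene names came from the platform annotation: 28898 probe sets had 1 symbol, 551 several and 15692 none listed. Of those with 1 symbol, 28689 matched RefSeq by Entrez number, and 0 symbols differed. 104 control probe sets were left out. A model with 1 mean per group was fitted in limma 3.58.1 (R 4.3.3) over the 8 arrays together. The 4 groups therefore shared 1 estimate of spread for each probe set. All tests were two-sided. The 6 comparisons were the genotype effect within ALP and within preproNK, the population effect within WT, within KO and over both, and the interaction. The fit was run on simulated data with known changes, where each probe set varied alike and independently on all 8 arrays. That setting held no array like WT preproNK replicate 2 and no replicate batch. It therefore cannot decide how calls here depend on them.

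Replicate 1 and 2 were processed on different dates per the series' design text, so the number marks a batch that pairs the groups. Deviations of same-numbered arrays correlated at 0.130 to 0.798 in all 6 pairs of groups. The fit with the number as a block is an alternative, as are quantile normalization repeated, other filters, a floor at the median, array weights, 1 probe set per gene, only the groups compared, and leaving out each array.

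Named genes were all member probe sets; from each list up to 4 genes called in a population comparison, or where none was called the 2 with the smallest p; and the 3 probe sets most like each member. The members and lists were chosen with earlier results of these data known. Genes with no probe set of a single symbol were not analysed here.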

Additional observations from a re-analysis of the deposited data

Results flagged for a closer look

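Of the members, 3 probe sets had KO minus WT differences of one sign in both replicate pairs in ALP and of the opposite sign in both pairs in preproNK. For Id2 1453596_PM_at the interaction was 0.95 (SE 1.28), with pairs of -0.11 and -0.13 in ALP and 0.09 and 1.57 in preproNK. For Tcf4 1434149_PM_at it was -1.36 (SE 0.74), and for Tcf4 1434148_PM_at it was -0.62 (SE 1.11). The difference between the populations was tested as the interaction in limma and was not called for any of the 3 (adjusted p = 1.00 each). Both Tcf4 probe sets share their source sequence. All 4 ALP arrays of Id2 1453596_PM_at, all 4 preproNK arrays of Tcf4 1434148_PM_at and both KO preproNK arrays of Tcf4 1434149_PM_at were below the array median, where a value is near background, so the signs of those pairs rest on values with no firm order.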

How the results depend on the processing

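The replicate number marks the processing date and so pairs the groups. With it as a block (replicate block), the calls were 43 in WT, 789 in KO and 1624 over both genotypes for preproNK against ALP, and 3 member probe sets were called in KO; the block changed no other call of a member's highest-mean probe set except that of Tcf4 in KO, which passed. With the block and without WT preproNK replicate 2 there were 774, 2418 and 3352 calls, of which 3, 6 and 6 were members, and 29 for KO against WT in preproNK, where Id2 turned to -0.39. There Id3 turned to -0.0123 over both genotypes, and Tcf12 to 0.31 in WT and -0.13 for the interaction.

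Repeated quantile normalization gave 79 calls in WT, 44.3% of them higher in preproNK against 18.8%. In KO it called 2 members, with 225 of the 26192 tested probe sets called higher and 131 lower. Without the filter there were 1 call for KO against WT in preproNK and 8 in WT. In KO 0 members were called, with 181 of 45037 probe sets called higher and 74 lower. Over both genotypes 1 member was called, with 297 of 45037 called higher and 261 lower. A floor at the array median left 0 members in KO, with 225 of the 26192 tested probe sets called higher and 98 lower. Array weights gave 4 calls in WT and 1927 in KO, 5 of them members. With 1 probe set per gene there were 203 calls in KO and 391 over both genotypes, among fewer features tested. Fits of only the 2 groups gave 0 in WT and 2206 in KO, 6 of them members.

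Id3, near background, reversed under quantile normalization to 0.0684 for the genotype in ALP and -0.0503 over both genotypes. With the floor it was 0.0286 and -0.0571 for the genotype in ALP and preproNK, 0.025 in WT, -0.0607 in KO, -0.0857 for the interaction and -0.0178 over both genotypes. Tcf3 read by 1426297_PM_at gave 0.0875 and 1.64 for the genotype and 1.56 for the interaction. Tcf12 was 0.11 in WT by 1427670_PM_a_at and -0.0127 over both genotypes after quantile normalization. The causes were not tested.

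Leaving out 1 array leaves a group with a lone array, assumed to vary like the others. Calls ranged from 0 to 5085 for KO against WT in preproNK (members 0 to 4), 0 to 1363 in WT (0 to 2), 0 to 1086 in KO (0 to 5) and 38 to 2060 over both genotypes (0 to 5). Differences that changed sign ranged from -0.51 to 1.80 for Id2 for the genotype in preproNK. For Id3 they ranged from -0.47 to 0.43 and -0.0733 to 0.60 for the genotype in ALP and preproNK, -0.44 to 0.23 in WT, -0.27 to 0.63 in KO, -0.16 to 0.74 for the interaction and -0.19 to 0.26 over both genotypes. The Tcf3 interaction ranged from -0.16 to 0.0054. Tcf4 ranged from -0.0521 to 1.21 and -1.79 to 0.56 for the genotype in ALP and preproNK. Tcf12 ranged from -0.13 to 0.78 and -0.0913 to 1.19 for the genotype, -0.69 to 0.59 in WT, -0.28 to 0.63 in KO, -0.42 to 0.86 for the interaction and -0.25 to 0.38 over both genotypes. Of 542 values of the 5 tested genes under all alternatives, other probe sets of the gene included, 460 kept their direction and side of the threshold.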

Other observations

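Of the remaining marker lists, B cell markers had 1 of 6 tested genes called in preproNK against ALP over both genotypes. It was Blnk, lower, against 1.34% lower of all tested probe sets. The B cell marker Ms4a1 was below the array median on all 8 arrays. Myeloid markers had 0 of 10 called, with summed levels of 1039 to 2145 in ALP and 404 to 1436 in preproNK, and S100a8 below the median throughout. Erythroid markers had 0 of 7 called, with sums of 452 to 1174 and 1099 to 2967. Mast cell and megakaryocyte markers had 0 of 4 called, with Pf4, Ms4a2 and Fcer1a below the median on every array.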
